A study of Gallus gallus with 16 samples.

Results

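BMP2, BMP4 and BMP7 are 3 of the 17108 genes counted in the combined retina, retinal pigment epithelium (RPE) and choroid of chicks, and they were followed here through form deprivation and recovery from it. They were taken by name from the annotation column of the count table, as ENSGALG00000008830 (BMP2), ENSGALG00000012429 (BMP4) and ENSGALG00000007668 (BMP7), with group differences of these same libraries already known. Their levels and differences between groups are therefore given as a description, with no test. RNA-seq was run on right eyes of 16 male Leghorn/New Hampshire chicks, 4 per group. FDMR 0 h chicks wore an occluder over the right eye for 7 days and were collected when it came off, FDMR 6 h and FDMR 24 h chicks were collected 6 h or 24 h after its removal under the normal light/dark cycle, and No Lens chicks were separate birds of the same strain that never wore one. Occlusion makes the eye elongate and become myopic, and normal vision afterwards allows it to recover. All 3 occluded groups share the 7 days of deprivation. They differ in the time since it ended, and by the study's methods the 24 h chicks alone passed a night in the dark within that time, so that night and recovery time cannot be told apart at 24 h.

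The sequenced chicks were picked by the authors out of a larger set because their axial lengths were comparable, so the spread within a group may be smaller than among all birds. The labels give an age of post-hatch day 20, or 21 for the 24 h chicks, whereas the treatment description in the same labels places collection earlier, so the age is uncertain. By the labels the 24 h chicks were older than the other groups, so age and hours of recovery cannot be told apart at 24 h. The 6 h chicks were collected later in the day than the other groups and had no control of the same hour, so hour of day and hours of recovery cannot be told apart at 6 h. Counts on genes ranged between 1553717 (FDMR 24 h chick 29) and 4816425 (FDMR 0 h chick 13) per chick. Over the 24 pairs of chicks within groups, chi-square per degree of freedom of the gene counts was 2.49 to 10.6, so none looked like 1 library deposited more than once. Of 11334 genes that passed the filter of at least 10 counts in at least 4 libraries, edgeR's quasi-likelihood test at a false discovery rate (FDR) of 5% called 3 at 0 h vs No Lens, 362 for 6 h vs 0 h, 127 for 24 h vs 0 h and 220 for 24 h vs 6 h. All 3 BMP genes passed that filter.

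Bone morphogenetic proteins are secreted dimeric ligands of the TGF-beta superfamily. They bind pairs of type I and type II serine/threonine kinase receptors, which phosphorylate SMAD1, SMAD5 and SMAD9, and secreted antagonists such as noggin and chordin hold them away from the receptors. BMP2 and BMP4 are close relatives, whereas BMP7 belongs to the subgroup of BMP5 and BMP6, and in the chick eye the RPE is a known site of transcription of these ligands. The RPE lies between the retina and the choroid. Its defining markers were present in every group: RPE65, the isomerase of the visual cycle, averaged 567, 614 and 603 CPM (read counts scaled to library size) at 0 h, 6 h and 24 h and 549 CPM in No Lens chicks. In the same order of groups, TTR averaged 243, 257, 291 and 243 CPM. RLBP1 averaged 463, 413, 529 and 436 CPM, and BEST1 40.8, 32.7, 49.5 and 39.5 CPM, so the markers did not all move alike. Values below are CPM with TMM-scaled library sizes. Reads were not divided by transcript length, so levels are compared between groups for each gene and not between genes.

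BMP2 was lowest in the eyes collected at occluder removal and highest after 6 h of vision. It had 3.28, 3.45, 6.90 and 3.30 CPM in FDMR 0 h chicks 9, 10, 12 and 13. At 6 h chicks 18, 19, 21 and 23 had 59.0, 68.2, 78.8 and 66.7 CPM, at 24 h chicks 26, 29, 30 and 32 had 55.5, 49.1, 48.4 and 43.2 CPM, and No Lens chicks 3, 4, 6 and 7 had 12.3, 18.8, 19.5 and 19.3 CPM. No value of one group fell inside the range of another, so that the groups stood in the order 6 h, 24 h, No Lens, 0 h with no overlap between neighbours. Means were 4.23 ± 1.78 CPM at 0 h, 68.2 ± 8.17 CPM at 6 h, 49.1 ± 5.06 CPM at 24 h and 17.5 ± 3.48 CPM in No Lens chicks (SD, n = 4 chicks each).

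BMP4 was low both in occluded eyes at 0 h and in controls, and was higher at both recovery times. It had 3.28, 5.74, 7.48 and 7.63 CPM in FDMR 0 h chicks 9, 10, 12 and 13. At 6 h chicks 18, 19, 21 and 23 had 14.9, 14.1, 19 and 33.8 CPM, at 24 h chicks 26, 29, 30 and 32 had 18.8, 16.6, 23.6 and 25.9 CPM, and No Lens chicks 3, 4, 6 and 7 had 0.559, 4.13, 5.95 and 10.8 CPM. Both recovery groups lay wholly above the 0 h and No Lens groups, while 24 h overlapped 6 h and 0 h overlapped No Lens. Means were 6.03 ± 2.02 CPM at 0 h, 20.5 ± 9.14 CPM at 6 h, 21.2 ± 4.28 CPM at 24 h and 5.37 ± 4.27 CPM in No Lens chicks (SD, n = 4 chicks each). The lowest value, in No Lens chick 3, rests on 2 reads, whose exact 95% Poisson interval of 0.242 to 7.22 reads covers counting error only.

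BMP7 followed the same order of means as BMP2 over a narrower range. It had 218, 221, 226 and 201 CPM in FDMR 0 h chicks 9, 10, 12 and 13. At 6 h chicks 18, 19, 21 and 23 had 380, 472, 578 and 558 CPM, at 24 h chicks 26, 29, 30 and 32 had 494, 517, 414 and 450 CPM, and No Lens chicks 3, 4, 6 and 7 had 228, 294, 310 and 285 CPM. The recovery groups overlapped each other and stood clear of the rest, and the highest 0 h chick (226 CPM) was just below the lowest No Lens chick (228 CPM). Means were 217 ± 10.5 CPM at 0 h, 497 ± 90.5 CPM at 6 h, 469 ± 46.0 CPM at 24 h and 279 ± 35.5 CPM in No Lens chicks (SD, n = 4 chicks each).

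**Figure D1:**
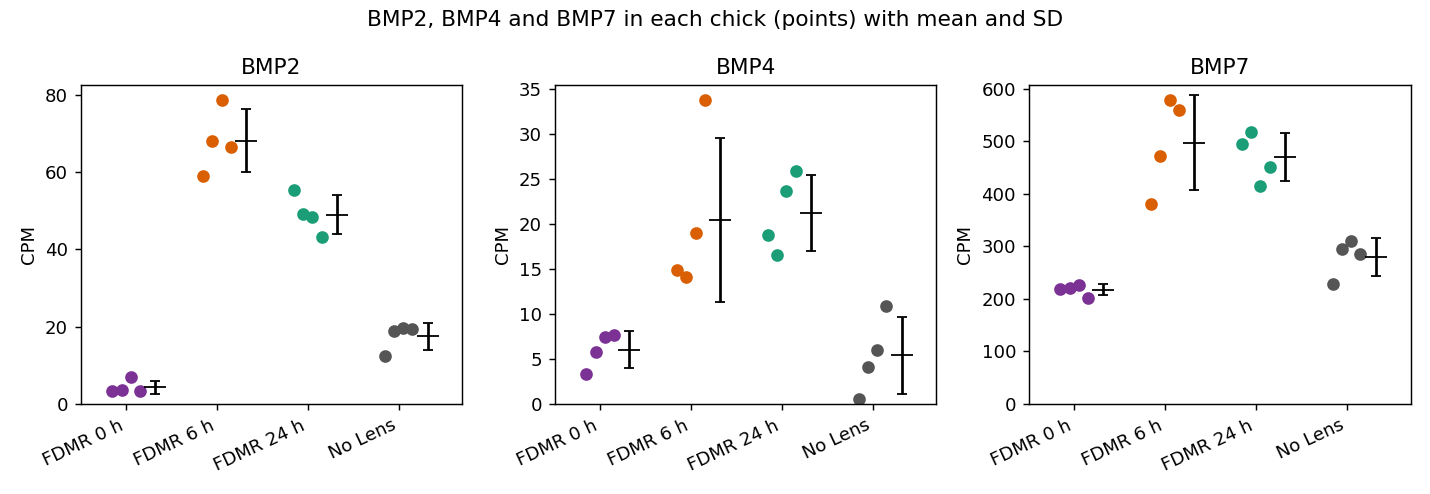
CPM of BMP2, BMP4 and BMP7 (1 panel each, linear axes from 0) in the 4 chicks of each group, as points, with the group mean and SD beside them. BMP2 averaged 4.23 CPM at 0 h, 68.2 CPM at 6 h, 49.1 CPM at 24 h and 17.5 CPM in No Lens chicks, with no overlap between groups, while BMP4 and BMP7 overlapped between 6 h and 24 h.

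When occluders came off, BMP2 and BMP7 were lower than in controls. At 0 h vs No Lens the log2 fold change was -2.07 for BMP2 (standard error 0.22), a level 0.239 times that of No Lens chicks (95% interval 0.177 to 0.323). That of BMP7 was -0.37 (standard error 0.12), a level 0.775 times that of No Lens chicks. All 4 occluded chicks were below all 4 controls for these 2 genes, a pattern that 1.69% of the genes tested showed. BMP4 overlapped between the groups, with a difference of 0.15 in log2 CPM (standard error 0.48) and an interval of 0.578 to 2.14 times, which includes both lower and higher levels. For BMP4 the comparison turned on single control birds: the log2 fold change was -0.21 without No Lens chick 3 and 0.80 without No Lens chick 7. Ranked among the 11334 genes tested, BMP2 had the 3rd lowest log2 fold change and BMP7 the 335th lowest.

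By 6 h after occluder removal all 3 ligands were higher than at 0 h. BMP2 was 16.3-fold higher at 6 h than at 0 h (95% interval 12.4 to 21.3), BMP4 3.35-fold (1.89 to 5.96) and BMP7 2.30-fold (1.96 to 2.69). The log2 fold changes were 4.02, 1.74 and 1.20, with standard errors of 0.20, 0.42 and 0.12. All 4 chicks at 6 h exceeded all 4 at 0 h for each of the 3 genes, against 5.28% of the genes tested. Only 3 genes had a larger rise than BMP2 at 6 h vs 0 h, and BMP4 was 18th and BMP7 54th in that order. Because the genes were chosen with this contrast known, nothing is read from these counts and ranks.

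At 24 h the higher levels were still present. The fold over 0 h was 11.7 for BMP2 (95% interval 8.87 to 15.5), 3.53 for BMP4 (1.97 to 6.32) and 2.16 for BMP7 (1.84 to 2.54). All 4 chicks at 24 h exceeded all 4 at 0 h for the 3 genes, as did 2.99% of the genes tested. By the study's methods the 24 h and 0 h eyes were taken at the same hour of day. Of the 3 genes, BMP2 was the one with no overlap between the 2 recovery times: at 24 h vs 6 h its log2 fold change was -0.47 (standard error 0.15), with all 4 chicks lower, as 4.73% of the genes tested were. The log2 fold change at 24 h vs 6 h was 0.07 for BMP4 (standard error 0.38, interval 0.628 to 1.76 times) and -0.09 for BMP7 (standard error 0.11, interval 0.806 to 1.10 times). The interval for BMP4 leaves room for a fold of over 1.5 in either direction.

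Against birds that never wore an occluder, the recovering eyes were above the control level for all 3 ligands. At 0 h, by contrast, BMP2 and BMP7 were below that level and BMP4 overlapped it. At 6 h vs No Lens the log2 fold changes were 1.96 for BMP2, 1.90 for BMP4 and 0.83 for BMP7, with standard errors of 0.16, 0.43 and 0.12. At 24 h vs No Lens they were 1.48, 1.97 and 0.74, with standard errors of 0.17, 0.44 and 0.12. In each comparison all 4 recovering chicks exceeded all 4 controls for each gene, against 3.73% of the genes tested at 6 h and 2.44% at 24 h. Without No Lens chick 7, which had the most BMP4 among controls, the fold of BMP4 was 5.83 at 6 h vs No Lens, against 3.73 with all chicks, and 6.14 at 24 h vs No Lens, against 3.92. Without No Lens chick 3, which had the least, its log2 fold change fell to 1.54 at 6 h and 1.61 at 24 h, each vs No Lens. The comparisons share the 0 h or the No Lens chicks and are not independent of each other.

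**Figure D2:**
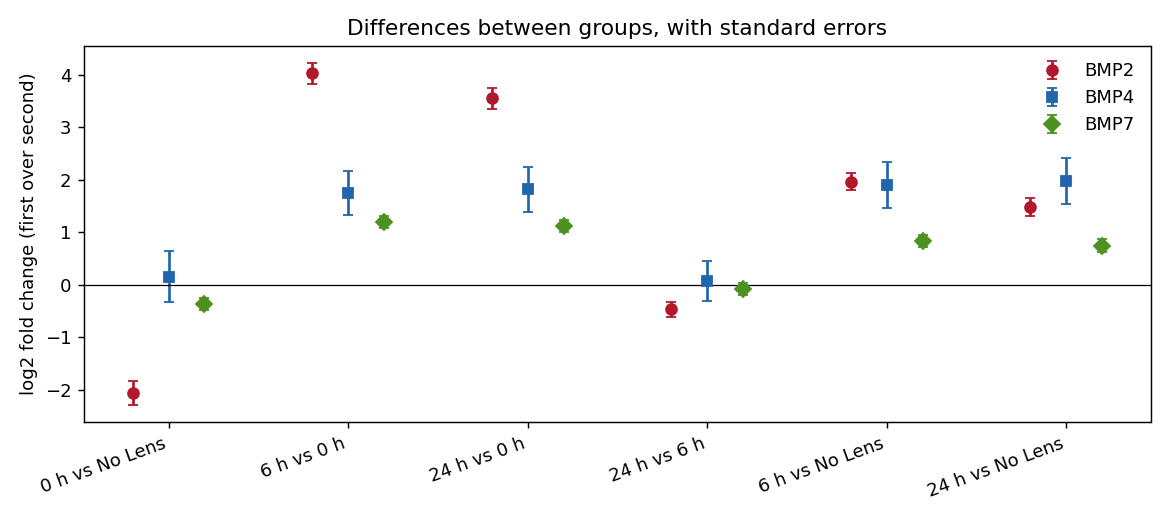
Log2 fold changes of BMP2, BMP4 and BMP7 in the 6 comparisons (first group over second), with standard errors derived from the F statistics of the edgeR fit of all 16 libraries. BMP2 ranges from -2.07 at 0 h vs No Lens to 4.02 at 6 h vs 0 h. At 24 h vs No Lens BMP4 has the larger estimate (1.97 against 1.48 for BMP2), with standard errors of 0.44 and 0.17, and their difference was not tested. At 24 h vs 6 h BMP4 (0.07) and BMP7 (-0.09) lie within 1 standard error of 0.

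The makeup of the reads on the 3 genes also differed between groups, a measure that does not depend on how libraries are scaled. BMP2 gave 1.46% to 2.87% of the reads on the 3 genes at 0 h, 10.1% to 13% at 6 h, 8.32% to 9.96% at 24 h and 5.09% to 6.14% in No Lens chicks. No chick of one group lay within the range of another for this share. Its mean was 1.85% ± 0.687 at 0 h, 11.8% ± 1.23 at 6 h, 9.12% ± 0.866 at 24 h and 5.75% ± 0.457 in No Lens chicks (SD, n = 4 chicks each). BMP7 gave most of the reads in every chick, on average 95.5% at 0 h, 84.8% at 6 h, 86.9% at 24 h and 92.6% in No Lens chicks. The share of BMP4 averaged 2.67% at 0 h, 3.44% at 6 h, 4.00% at 24 h and 1.69% in No Lens chicks, and its ranges overlapped between every pair of groups.

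**Figure D3:**
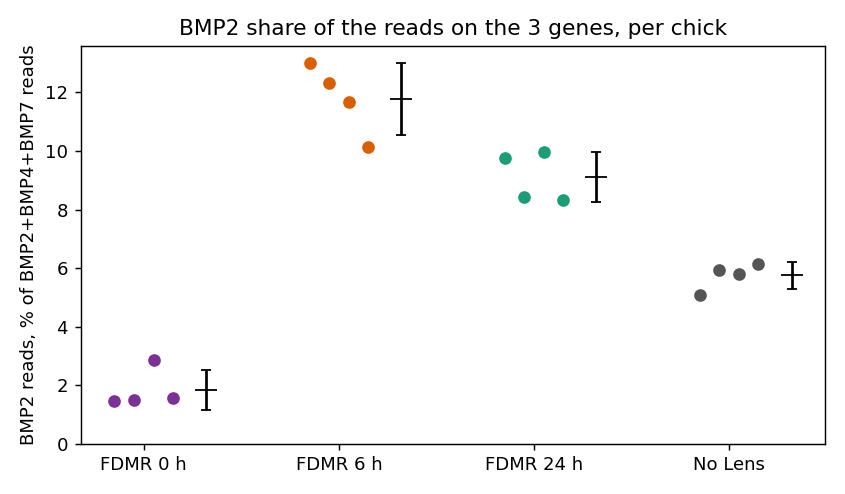
BMP2 reads as a percentage of all reads on BMP2, BMP4 and BMP7 in each chick (points), with the group mean and SD beside them. The means are 1.85% at 0 h, 11.8% at 6 h, 9.12% at 24 h and 5.75% in No Lens chicks, and the ranges of the groups do not overlap.

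The 3 ligands differed in how much chicks of 1 group varied. The pooled SD within groups on the log2 CPM scale was 0.30 for BMP2, 0.83 for BMP4 and 0.19 for BMP7. No Lens chicks weighed most on the figure of BMP4. Chick 3 lay -2.02 from its group mean, on 2 reads, and chick 7 lay 1.37 from it. The coefficient of variation of BMP7 was 4.87% at 0 h, 18.2% at 6 h, 9.80% at 24 h and 12.7% in No Lens chicks, where counting error alone gives 3.48%, 2.21%, 2.71% and 3.11%. For BMP4 it was 33.6%, 44.7%, 20.2% and 79.6% in the same order of groups, against 22.3%, 11.4%, 13.5% and 39.8% from counting alone. The counting figures were computed from the observed reads of each chick. That of 39.8% rests mostly on the 2 reads of No Lens chick 3 and may overstate counting error in that group. BMP2 varied by 42.1% at 0 h, where it had 12 to 24 reads per chick and counting gives 26%. It varied by 12.0% at 6 h, 10.3% at 24 h and 19.9% in No Lens chicks, against 5.91%, 8.50% and 12.6% from counting.

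Differences between chicks of the same group do not enter the group means, and relations among them were tested. The results by which the genes were known also depend on the spread within groups, so the choice is not wholly independent of these differences. How often other pairs of genes deviate together was not tested. Deviations of log2 CPM from the group mean were correlated over the 16 chicks, with chicks permuted within groups in a two-sided permutation test and adjustment over 6 relations. BMP2 and BMP7 deviated together, with Pearson r = 0.56 (permutation p = 0.00324, adjusted p = 0.0115) and Spearman rho = 0.66 (permutation p = 0.00715, adjusted p = 0.0241), and 12 of 16 chicks had both on the same side of their group mean. Without FDMR 0 h chick 12 and No Lens chick 3, the chicks farthest from the median of BMP2, r was 0.69 with an unadjusted permutation p of 0.0869. BMP2 and BMP4 had r = 0.52 (adjusted permutation p = 0.115) and rho = 0.36 (adjusted permutation p = 0.222), and r was -0.01 without the same 2 chicks. BMP4 and BMP7 had r = 0.47 (adjusted permutation p = 0.14) and rho = 0.37 (adjusted permutation p = 0.222), with r = 0.23 without No Lens chicks 3 and 7. In each of the pairs with BMP4, 8 of 16 chicks had both ligands on the same side.

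The other 3 relations set each ligand against the summed level of 16 pigment epithelium markers, all of which had counts. BMP7 went with the markers at r = 0.87 (permutation p = 0.00382, adjusted p = 0.0115) and rho = 0.81 (adjusted permutation p = 0.0241), with 13 of 16 chicks on the same side. BMP4 had r = 0.70 (adjusted permutation p = 0.0404) and rho = 0.53 (adjusted permutation p = 0.0915), and BMP2 had r = 0.47 (adjusted permutation p = 0.0488) and rho = 0.49 (adjusted permutation p = 0.0915). On the same side as the markers were 9 of 16 chicks for BMP4 and 11 for BMP2. Taken group by group, r was positive in 3 of the 4 groups for each ligand. At 24 h, chicks 26 and 29 were above their group mean in the markers and below it in BMP4, and chicks 30 and 32 the reverse. The call of BMP2 was lost without any 1 of 13 chicks and that of BMP4 without any 1 of 8, and that of BMP7 was lost without 1 chick, No Lens chick 3. Without the 2 chicks farthest from the median of the markers, FDMR 6 h chick 18 and No Lens chick 3, r was 0.61 for BMP7 (permutation p = 0.114), 0.39 for BMP4 (permutation p = 0.239) and 0.05 for BMP2 (permutation p = 0.788). Without No Lens chick 3 alone, r was 0.83 for BMP7, 0.43 for BMP4 and 0.22 for BMP2, and 0.41 between BMP2 and BMP7, and no relation passed the threshold. That chick was also unlike its group over all genes. Its chi-square per degree of freedom was 6.60 to 10.6 against the other No Lens chicks, which had 2.78 to 4.18 among themselves. Each other group also held a chick with higher values than the rest had among themselves. These were FDMR 0 h chick 9 (4.60 to 5.60), FDMR 6 h chick 23 (4.76 to 5.65) and FDMR 24 h chick 26 (5.47 to 8.35). Whether other genes go with the markers in the same way was not tested. With the mean of the centred log2 CPM of the markers in place of their sum, a choice made after seeing the data, the calls of BMP2 (r = 0.45, adjusted permutation p = 0.147) and BMP7 (r = 0.61, adjusted permutation p = 0.0926) were lost. The call of BMP4 was kept, and its r was 0.73 to 0.95 over the alternatives that left out no chick. Which ligand went most closely with the markers therefore depended on how their level was taken.

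**Figure D4:**
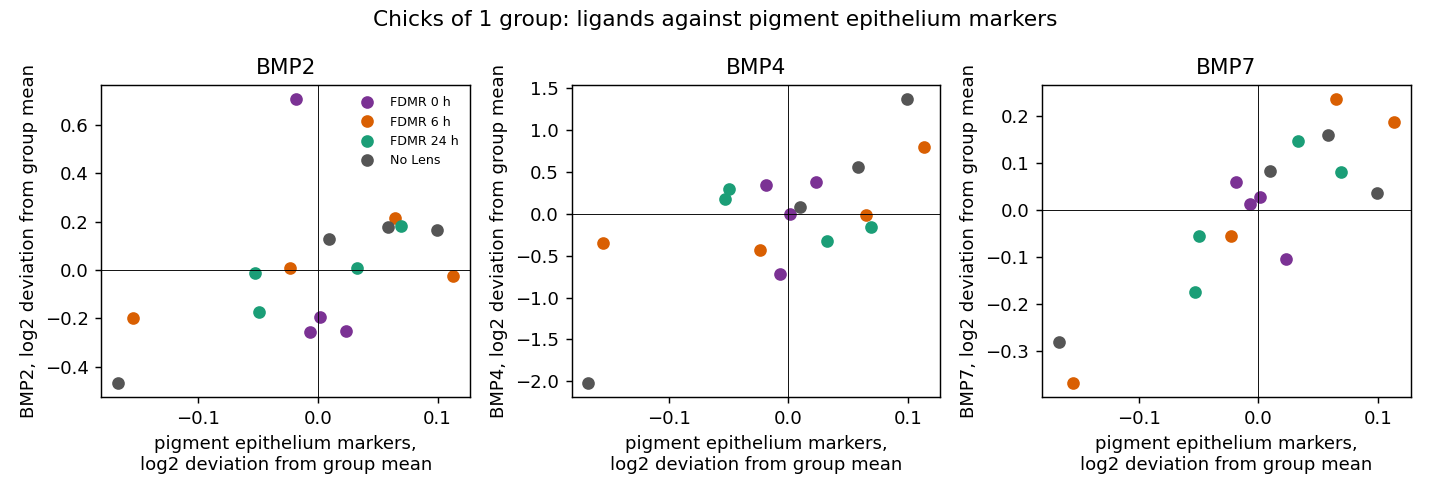
Deviation of each ligand from its group mean (log2 CPM, vertical) against that of the summed pigment epithelium markers (log2, horizontal) for the 16 chicks, coloured by group. The correlation is 0.87 for BMP7, 0.70 for BMP4 and 0.47 for BMP2, and the 2 chicks at the far left are FDMR 6 h chick 18 and No Lens chick 3.

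In a dissected sheet of several tissues, fewer cells of a type and less RNA per cell cannot be told apart, so the summed markers of each tissue are given beside the ligands. The 16 pigment epithelium markers summed to 4124 to 4245 CPM at 0 h, 3514 to 4231 CPM at 6 h, 4524 to 4922 CPM at 24 h and 3656 to 4397 CPM in No Lens chicks. The sum at 6 h overlapped that at 0 h (log2 ratio -0.09), where all 3 ligands were higher at 6 h. Of the 16 markers, 6 were higher and 10 lower at 6 h vs 0 h, with 1 called higher and 2 lower by edgeR. Of all genes tested, 2.00% were called higher and 1.19% lower in that comparison. At 24 h the sum was above every other group, by 0.17 on the log2 scale over 0 h, 0.26 over 6 h and 0.19 over No Lens. At 24 h vs 0 h edgeR called 0.591% of all genes tested higher and 0.529% lower. Of the 16 markers, 14 were higher and 2 lower in that comparison, with 1 called in each direction. With libraries scaled to these markers, the log2 fold changes at 24 h vs 0 h were 3.38 for BMP2, 1.66 for BMP4 and 0.94 for BMP7. On the same scale those at 24 h vs No Lens were 1.30, 1.82 and 0.56, and those at 24 h vs 6 h were -0.73, -0.16 and -0.34, in the same order of genes. The part of the pigment epithelium share in the levels of the ligands was not tested further.

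Markers of other tissues moved too, and their part in the levels of the ligands was not tested. The 6 smooth muscle markers found, of 7, summed to 796 to 1099 CPM at 6 h and 751 to 1011 CPM at 24 h, both wholly below the 1203 to 1491 CPM at 0 h. The 5 striated muscle markers found, of 7, summed to 6.20 to 11.3 CPM at 24 h, wholly below 12.3 to 15.6 CPM at 0 h and 13.1 to 29.1 CPM in No Lens chicks. Smooth muscle markers were thus lower than at 0 h at both recovery times, and striated muscle markers at 24 h. Of the 5 smooth muscle markers tested, edgeR called 2 lower at each time vs 0 h. Of all genes tested it called 1.19% lower at 6 h and 0.529% lower at 24 h, each vs 0 h. For striated muscle, 3 markers were tested and 0 were called at 24 h vs 0 h and vs No Lens. The 8 photoreceptor markers found, of 9, summed to 5884 to 6534 CPM at 6 h, wholly below 6691 to 7479 CPM at 0 h, and edgeR called 1 of them higher and 3 lower in that comparison. Of all genes tested, 2.00% were called higher and 1.19% lower there. At 24 h the photoreceptor markers summed to 6653 to 7957 CPM, wholly above 6 h. Connective tissue markers, 6 of 7 found, summed to 725 to 1113 CPM at 24 h, wholly above 602 to 723 CPM at 0 h, with 2 of them called higher and 1 lower by edgeR. The sum therefore does not stand for every marker of a list. Over all genes tested, 0.591% were called higher and 0.529% lower at 24 h vs 0 h. The 6 Mueller glia markers summed to 4704 to 5293 CPM at 24 h, wholly above 3978 to 4486 CPM at 6 h and 3757 to 4657 CPM in No Lens chicks. RLBP1 stands in this list and in that of the pigment epithelium, so the sums of these lists share it. The 7 endothelium markers found, of 8, summed to 494 to 598 CPM at 24 h, wholly below 615 to 795 CPM in No Lens chicks. The sums of amacrine and bipolar, ganglion cell and leukocyte markers overlapped between groups in all 6 comparisons. Every marker found in these lists had counts. The share of other gene sums that would not overlap between groups was not computed.

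The rest of the BMP pathway was read from 6 lists of 67 genes, of which 58 were in the table and 46 were tested. The members of these lists were not picked by how they moved, but BMP3, ID2, TSKU, SMAD6 and CER1 stand in gene lists of the study, so that their results were known. Of the 4 genes that edgeR called in any comparison, only CHRDL1 was not among these. The counts of calls below are therefore not independent of known results. At 6 h vs 0 h edgeR's quasi-likelihood test called 2 of the 46 higher and 2 lower, where 3.19% of all genes tested were called, 2.00% higher and 1.19% lower. At 24 h vs 0 h it called 2 higher and 0 lower, where 1.12% of all genes were called, 0.591% higher and 0.529% lower. At 6 h vs No Lens it called 0 higher and 2 lower, against 2.74% of all genes, 1.55% higher and 1.18% lower. In the comparisons of 0 h with No Lens, of 24 h with 6 h and of 24 h with No Lens, edgeR called 0 of 46, against 0.0265%, 1.94% and 1.33% of all genes, and 0, 0 and 1 were called by DESeq2. At an unadjusted p under 0.05 there were 4, 12 and 10 of the 46 in these comparisons, against 4.01%, 15.7% and 13.8% of all genes tested. The median log2 fold change of the 46 was 0.05 for 6 h and 0.02 for 24 h, each vs 0 h, and that of all genes was 0.00 in both.

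Among the other ligands, 4 of 12 could be tested and edgeR called 1. In at least 1 comparison all 4 had an unadjusted p under 0.05, against 32.1% of all genes tested. They did so at 24 h vs 6 h, where 2 were higher and 2 lower, against 15.7% of all genes tested. BMP3, a divergent family member known to oppose other BMPs in mammals and frogs, fell to 2.22 ± 0.606 CPM at 6 h, against 7.28 ± 2.62 CPM at 0 h and 7.32 ± 2.32 CPM in No Lens chicks (SD, n = 4 chicks each). Its log2 fold change was -1.68 at 6 h vs 0 h (standard error 0.31, adjusted p = 0.00303 from edgeR) and -1.69 at 6 h vs No Lens (standard error 0.31, adjusted p = 0.00388 from edgeR). BMP3 had 4.60 ± 0.529 CPM at 24 h. BMP5 and BMP6, the relatives of BMP7, did not pass the test in any of the 6 comparisons. The log2 fold change of BMP5 was -0.98 at 24 h vs 0 h (standard error 0.35) and -1.14 at 24 h vs 6 h (standard error 0.34). At 24 h vs 6 h the 24 h chicks were all lower in BMP5, as in 4.73% of the genes tested. That of BMP6 at 24 h vs 6 h was -0.44 (standard error 0.19).

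None of the 12 receptors and co-receptors was called by edgeR in any of the 6 comparisons, and 0 were called by DESeq2. In at least 1 comparison 7 of them had an unadjusted p under 0.05, as did 32.1% of all genes tested. BMPR2, the type II receptor, had 119 ± 11.6 CPM at 0 h, 140 ± 12.2 CPM at 6 h, 136 ± 17.5 CPM at 24 h and 143 ± 8.75 CPM in No Lens chicks. BMPR1A, a type I receptor, had 25.7 ± 1.26, 26.2 ± 4.70, 21.1 ± 0.717 and 25.0 ± 2.92 CPM in the same order of groups. These 2 receptors were named after their values were seen. The 6 processing proteases tested, which cut the ligands and their antagonists, had 0 calls by edgeR and by DESeq2, with 2 genes at an unadjusted p under 0.05 in at least 1 comparison, against the same 32.1% of all genes.

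Of 13 secreted antagonists and modulators tested, edgeR called 2, in opposite directions. In at least 1 comparison 7 had an unadjusted p under 0.05, against 32.1% of all genes tested. CHRDL1, a chordin-like protein that binds BMPs, fell to 144 ± 7.38 CPM at 6 h, against 211 ± 23.5 CPM at 0 h (log2 fold change -0.55, standard error 0.08, adjusted p = 0.000368 from edgeR) and 185 ± 15.4 CPM in No Lens chicks (log2 fold change -0.36, standard error 0.08, adjusted p = 0.0185 from edgeR). The call against No Lens was lost without FDMR 6 h chick 19 or 23 or No Lens chick 4, with adjusted p up to 0.093 in edgeR. TSKU, a leucine-rich proteoglycan that inhibits BMPs in chick embryos, had 24.3 ± 4.20 CPM at 6 h and 26 ± 5.44 CPM at 24 h, against 13.3 ± 1.43 CPM at 0 h (log2 fold changes 0.87 and 0.94, adjusted p = 0.00754 and 0.0125 from edgeR). No Lens chicks had 21.6 ± 3.98 CPM of TSKU, which both recovery groups overlapped (log2 fold changes 0.17 and 0.24, not called). The 0 h chicks were all below No Lens chicks (log2 fold change -0.70, not called), as in 1.69% of the genes tested. Without FDMR 24 h chick 26 the adjusted p of TSKU at 24 h vs 0 h was 0.0509 in edgeR, and both calls were lost when libraries were thinned to the smallest. CER1, the secreted antagonist Cerberus, had too few reads for the test and was named after its values were seen, with 30 reads over the 4 chicks at 6 h, 9 at 24 h, 0 at 0 h and 0 in No Lens chicks.

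Inside the cell, edgeR called none of the 6 SMAD and SMURF genes tested in any comparison, with 1 called by DESeq2 and 2 at an unadjusted p under 0.05 in at least 1 comparison, against 32.1% of all genes. SMAD6, an inhibitory SMAD, had 31.4 ± 2.70 CPM at 6 h, against 20.5 ± 4.51 CPM at 0 h, 0.61 higher on the log2 scale, which did not pass the test (adjusted p = 0.07 from edgeR). The call by DESeq2 fell in this comparison, where SMAD6 alone of the 6 had an unadjusted p under 0.05 in edgeR. Of 5 target genes tested, 4 had an unadjusted p under 0.05 in at least 1 comparison, against the same 32.1% of all genes. ID2, an inhibitor of basic helix-loop-helix factors that BMP signalling is known to induce, rose. It had 115 ± 2.78 CPM at 6 h and 129 ± 19.6 CPM at 24 h, against 83.0 ± 10.1 CPM at 0 h (log2 fold changes 0.46 and 0.61, adjusted p = 0.0201 and 0.00689 from edgeR). All 4 chicks were higher at each time than at 0 h, as in 5.28% of the genes tested at 6 h and 2.99% at 24 h. No Lens chicks had 96.8 ± 12.7 CPM of ID2. Against them edgeR called it at neither time (log2 fold changes 0.24 at 6 h and 0.39 at 24 h). DESeq2 did call ID2 at 24 h vs No Lens, so that result depends on the method. The call of ID2 at 6 h was lost without any 1 of 6 chicks (FDMR 0 h chicks 9, 10 and 12, and FDMR 6 h chicks 18, 19 and 23), with adjusted p up to 0.0775 in edgeR. The median log2 fold change of the 5 targets was 0.38 at 6 h vs 0 h, where 4 were positive, and 0.77 at 24 h vs 0 h, where 5 were positive, and ID2 alone passed the test at either time. The other 4 varied: at 24 h vs 0 h the log2 fold change was 0.84 for ID3 (standard error 0.22), 0.77 for ID1 (standard error 0.53), 0.77 for MSX2 (standard error 0.41) and 0.08 for HEY1 (standard error 0.10), and that of ID1 at 6 h vs 0 h was -0.47 (standard error 0.57). These 4 were named after their values were seen.

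**Figure D5:**
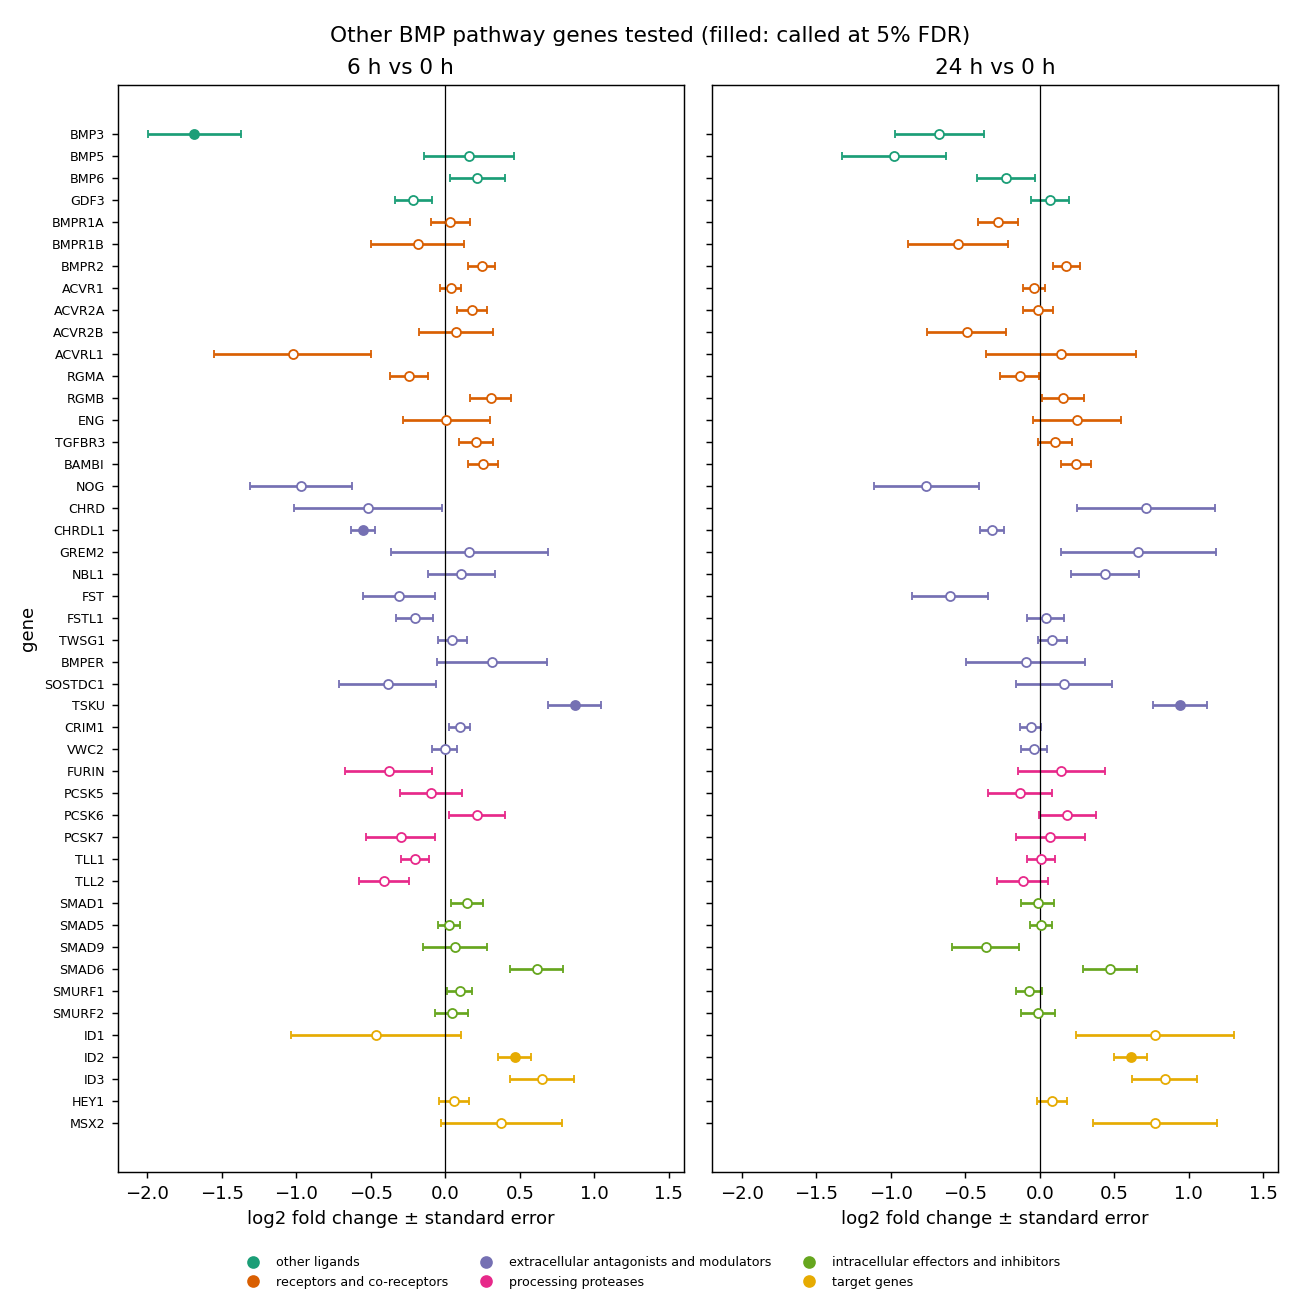
Log2 fold changes with standard errors of the 46 other BMP pathway genes tested, at 6 h vs 0 h (left) and 24 h vs 0 h (right), coloured by role and filled where edgeR called them at an FDR of 5%. BMP3 (-1.68), CHRDL1 (-0.55), TSKU (0.87) and ID2 (0.46) are filled at 6 h, TSKU (0.94) and ID2 (0.61) at 24 h, and all 12 receptors are open in both.

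The genes whose pattern over the 16 chicks was most like that of each ligand were found by the Pearson r of log2 CPM among 10096 genes with a symbol and a mean of at least 10 counts, as a description. For BMP2 they were KCNJ13 (r = 0.96), an inwardly rectifying potassium channel of the RPE, GPR133 (r = 0.95), an adhesion G protein-coupled receptor, and BMP7 (r = 0.94). KCNJ13 had 22.7 ± 2.17 CPM at 0 h, 51.5 ± 3.36 CPM at 6 h, 42.9 ± 3.68 CPM at 24 h and 30.2 ± 1.64 CPM in No Lens chicks, the same order of groups as BMP2 over a smaller range. For BMP7 they were RGS16 (r = 0.97), a regulator of G protein signalling, GPR133 (r = 0.96) and NPR3 (r = 0.96), a natriuretic peptide clearance receptor, with BMP2 in 4th place. RGS16 had 35.2 ± 4.48 CPM at 0 h, 98.6 ± 17.5 CPM at 6 h, 106 ± 14.2 CPM at 24 h and 50.6 ± 7.51 CPM in No Lens chicks.

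In this ranking BMP4 was less like BMP2 and BMP7 than these were like each other. The genes most like BMP4 were MSI1 (r = 0.94), an RNA-binding protein of neural progenitors, ARRDC2 (r = 0.93), an arrestin-domain protein, and PLCD4 (r = 0.93), a phospholipase C, while BMP7 was 58th and BMP2 273rd of 10096. By Spearman rho BMP7 was 45th, BMP2 77th and MSI1 8th. BMP4 averaged 51.9 reads per chick, against 135 for BMP2 and 1396 for BMP7. The part of counting error in these places was not tested. After group means were removed, r was 0.88 for MSI1 and BMP4 and 0.21 for KCNJ13 and BMP2. Both genes were picked by their r over these same 16 chicks, so these values are no added support for a likeness. No Lens chick 3 lay farthest from its group mean in BMP4 (-2.02 on the log2 scale), on 2 reads. MSI1 had 65.6 ± 5.67 CPM at 0 h, 88.5 ± 10.3 CPM at 6 h, 85.9 ± 12.2 CPM at 24 h and 62.5 ± 16.5 CPM in No Lens chicks. All 16 points share the 4 groups and the library of each chick, and the order of names is that of these libraries.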

How the data were processed

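The values are the deposited read counts per gene, without normalization, which the authors made from single-end reads of stranded poly(A) libraries. The submitters' processing notes name FastQC, cutadapt, Trimmomatic, TopHat2, Bowtie2 and HTSeq, and the galGal4 build. The annotation release and the strand option of the counting are not given in the sources used here, so genes that overlap or have near-identical copies are uncertain. The table has 6 further lines that name no gene, which stayed out of library sizes and tests. Reads on genes were 54.1% to 58.1% of a chick's total.

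GEO's labels gave the groups, with chicks as replicates. The tests were run with edgeR 4.0.16 under R 4.3.3 (TMM, quasi-likelihood fit of all 16 libraries, Benjamini-Hochberg over 11334 genes, FDR 5%) and DESeq2 1.42.0 as an alternative. The 95% intervals of the ligand folds use a normal approximation, with standard errors derived from the F statistics of the fit. As the ligands were chosen with these contrasts known, the stated coverage may not hold. Log2 CPM used a prior count of 2. Permutation tests used 100000 resamples in Python 3.11.15 with scipy 1.17.1. The fit was tested on simulated data.

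The ligands, the lists of pathway and marker genes and the tests were chosen with earlier results of these data known. Named were the 3 ligands, per comparison up to 4 called pathway genes with the smallest adjusted p, the defining pigment epithelium markers, and the 3 genes most like each ligand. Alternatives were DESeq2, RLE factors, no filter, a filter of 1 CPM in 4 libraries, a fit of the compared groups alone, thinning to the smallest library, scaling to pigment epithelium markers and leaving out each chick. A mean of centred log2 CPM as marker level was chosen after seeing the data.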

Additional observations from a re-analysis of the deposited data

Results flagged for a closer look

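In 2 of the 12 sets of 4 chicks examined (3 ligands in 4 groups), 1 chick stood far from the other 3, where chance does so in about 5% of such sets. For BMP2 at 0 h it was chick 12, whose 6.90 CPM lay above the other 3, with a gap to its neighbour of 0.954 of the group's range. For BMP2 in No Lens chicks it was chick 3, whose 12.3 CPM lay below the other 3, with a gap of 0.903 of the range. Chick 3 was also the lowest No Lens chick for BMP4 (0.559 CPM) and BMP7 (228 CPM).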

How the results depend on the processing

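Of 414 values of the 18 ligand differences under 23 alternatives each, 407 kept their sign, and the other 7 were all BMP4 at 0 h vs No Lens (-0.21 to 0.80) and 24 h vs 6 h (-0.16 to 0.43). Leaving out 1 chick at a time gave log2 fold changes of BMP2 of -2.38 to -1.95 at 0 h vs No Lens, 3.90 to 4.34 for 6 h vs 0 h and, for 24 h vs 0 h, 3.43 to 3.86. Scaling to pigment epithelium markers gave BMP7 -0.34 (24 h vs 6 h) and 0.56 (24 h vs No Lens). Called pathway genes numbered 1 to 3 (24 h vs 0 h), 0 to 1 (24 h vs 6 h) and 1 to 2 (6 h vs No Lens) with 1 chick left out, and DESeq2 called 1 at 24 h vs No Lens. After thinning, TSKU had an adjusted p of 0.26 at 6 h and 0.316 at 24 h vs 0 h in edgeR.

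With 1 chick left out, r ranged over 0.41 to 0.76 for BMP2 and BMP7, and against the markers over 0.22 to 0.83 for BMP2, 0.43 to 0.77 for BMP4 and 0.80 to 0.92 for BMP7. With the mean of centred log2 CPM as marker level, r was 0.45 for BMP2 (adjusted permutation p = 0.147) and 0.61 for BMP7 (adjusted permutation p = 0.0926), and both calls were lost. That of BMP4 was kept, with r of 0.73 to 0.95 over the alternatives that left out no chick. Calls over all genes moved by more than 1.5 times at 0 h vs No Lens (3, against 8 in DESeq2, 0 with the compared groups alone, 0 after thinning and 1 to 3 with 1 chick left out), 24 h vs 0 h (127, against 194 in DESeq2 and 64 to 154 with 1 chick left out), 24 h vs 6 h (220, against 340 in DESeq2, 146 after thinning and 117 to 297 with 1 chick left out) and 24 h vs No Lens (151, against 261 in DESeq2, 92 with the compared groups alone and 92 to 174 with 1 chick left out). The causes were not tested. No paired analysis was possible because the groups share no chick numbers.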
